A study of Mus musculus with 16 samples.

Results

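A set of 659 promoters carried fewer ATAC-seq reads in cells that overexpress Kat6b from a transgene than in wild-type cells of the same FVB x BALB/c background. They were chosen from 20113 promoter windows, of which 19263 lie on autosomes and 10562 of those had a wild-type mean of at least 30 CPM (the count in a window scaled by the library's total promoter count). A promoter entered the set when all 4 transgenic values lay below all 4 wild-type values and the transgenic mean was at most 0.67 of the wild-type mean. The share of promoters at that level that met the whole rule was 6.24%, and 20% met the part on non-overlapping values alone. Because these values chose the set, the difference between transgenic and wild-type cells is described here without a test, and tests are kept for the C57BL/6 libraries, which the choice did not use.

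The study asked what losing or gaining KAT6B, a histone acetyltransferase, does to open DNA. Each of 4 groups holds 4 separate embryos: wild type and Kat6b-/- (KO) on C57BL/6, and wild type and Tg(Kat6b) (Tg), which overexpress Kat6b, on a hybrid FVB x BALB/c background. The hybrid background was used because transgenic mice do not survive on C57BL/6, so gain and loss of Kat6b were each compared with a wild type of their own strain. All libraries were made from cultured neural stem and progenitor cells taken from the dorsal telencephalon at embryonic day 12.5, so culture on neurosphere medium is common to every group. The Drosophila S2 cells added to every sample as a spike-in were not analysed here, and the labels used here give no promoter or copy number for the transgene.

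KAT6B acetylates histone tails as the catalytic subunit of a complex with a BRPF scaffold protein, and it is known as an activator of developmental genes and as a factor needed for the growth of the cerebral cortex. In ATAC-seq a transposase inserts adapters into open DNA, so reads pile up at active promoters and regulatory regions. Many promoters rich in CpG dinucleotides are open in nearly all cells, whereas promoters poor in CpG tend to open only in particular cell types.

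Close to the annotated start, the reference sequences of the promoters with the lowest transgenic to wild-type ratios ranged from no CpG dinucleotide to many. Among the 20 lowest, 17 had exactly 1 RefSeq promoter sequence, and the 3 with the lowest and the 3 with the highest observed to expected CpG ratio show this range. Each sequence runs from 250 bases before to 50 bases after the annotated start, on RefSeq's GRCm38.p6 build, whereas the counts were made on mm39. CpG dinucleotides are in capitals. Ms4a6b (chr19:11518309-11518608, plus strand) and Pate10 (chr9:35740710-35741009, plus strand) hold 0 CpG, Gm21119 (chr8:20614677-20614976, plus strand) holds 2, Isoc2b (chr7:4866130-4866429, minus strand) 16, Ptger3 (chr3:157566626-157566925, plus strand) 27 and Lrfn5 (chr12:61522917-61523216, plus strand) 32.
Ms4a6b: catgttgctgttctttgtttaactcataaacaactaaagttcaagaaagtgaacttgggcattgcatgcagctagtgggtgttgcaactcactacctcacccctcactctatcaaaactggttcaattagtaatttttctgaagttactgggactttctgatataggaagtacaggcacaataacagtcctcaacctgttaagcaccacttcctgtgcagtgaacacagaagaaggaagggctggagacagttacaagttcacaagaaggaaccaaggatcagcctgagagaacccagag
Pate10: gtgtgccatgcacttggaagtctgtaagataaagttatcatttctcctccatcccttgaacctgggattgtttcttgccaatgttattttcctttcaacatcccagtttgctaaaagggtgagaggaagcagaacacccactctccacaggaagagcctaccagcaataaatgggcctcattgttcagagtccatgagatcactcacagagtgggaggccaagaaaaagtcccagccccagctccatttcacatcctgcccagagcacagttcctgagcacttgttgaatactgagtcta
Gm21119: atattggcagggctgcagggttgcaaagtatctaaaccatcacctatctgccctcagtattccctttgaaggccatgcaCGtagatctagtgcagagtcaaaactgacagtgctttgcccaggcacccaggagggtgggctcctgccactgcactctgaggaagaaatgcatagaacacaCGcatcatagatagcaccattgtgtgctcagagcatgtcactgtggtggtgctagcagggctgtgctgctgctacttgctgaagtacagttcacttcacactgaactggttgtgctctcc
Isoc2b: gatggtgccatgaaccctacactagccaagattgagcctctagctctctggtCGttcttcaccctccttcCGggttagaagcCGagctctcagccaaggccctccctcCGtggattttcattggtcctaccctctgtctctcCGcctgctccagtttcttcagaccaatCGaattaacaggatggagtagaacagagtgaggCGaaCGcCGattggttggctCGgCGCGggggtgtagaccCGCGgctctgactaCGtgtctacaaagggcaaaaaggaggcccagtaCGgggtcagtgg
Ptger3: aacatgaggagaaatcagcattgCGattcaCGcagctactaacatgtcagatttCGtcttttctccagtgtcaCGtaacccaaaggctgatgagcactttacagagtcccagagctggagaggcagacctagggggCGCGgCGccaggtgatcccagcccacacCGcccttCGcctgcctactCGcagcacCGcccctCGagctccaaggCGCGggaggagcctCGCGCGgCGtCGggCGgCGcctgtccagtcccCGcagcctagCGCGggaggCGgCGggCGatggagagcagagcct
Lrfn5: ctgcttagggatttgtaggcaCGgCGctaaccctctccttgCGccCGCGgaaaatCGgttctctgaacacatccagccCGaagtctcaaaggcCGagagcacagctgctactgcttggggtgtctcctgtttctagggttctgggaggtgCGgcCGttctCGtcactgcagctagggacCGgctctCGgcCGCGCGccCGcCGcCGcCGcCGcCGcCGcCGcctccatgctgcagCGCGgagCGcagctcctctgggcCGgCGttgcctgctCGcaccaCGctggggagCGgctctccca
The sequence windows printed for Ms4a6b, Pate10 and Gm21119 were 43%, 47% and 51.3% G and C, and those for Isoc2b, Ptger3 and Lrfn5 were 56.7%, 64% and 67.7%. Motif words were searched on both strands, and CCAAT occurred in the Pate10, Gm21119 and Isoc2b windows, as in 38.1% of all 19612 RefSeq promoters. GGGCGG and CAGGTG occurred in the Ptger3 window, as in 48.8% and 19.5% of all promoters, and CCGGAA in the Isoc2b window, as in 19.4%. None of these 6 windows held the word TATAAA, which marks a TATA box and is found in 12.2% of all promoters. They also lacked CACGTG, an E box present in 8.18% of promoters, and TGACGTCA, the site of CREB factors, present in 2.35%. The word GCGCATGC, bound by NRF factors, was absent from them and present in 3.73% of promoters. The AP-1 word TGANTCA was absent and occurred in 7.13% of promoters, and the YY word AAGATGGC was absent and occurred in 3.18%. RefSeq sequences were at hand for 516 of the 659 promoters (78.3%), too few for a comparison of base composition over the whole set.

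Promoter totals were 1384643 to 3101439 counts in wild-type FVB x BALB/c libraries, 4023140 to 5015408 in transgenic, 2147037 to 2757778 in wild-type C57BL/6 and 2615700 to 3642738 in KO libraries, and the median promoter of the set held 67 to 165 counts per library. The Kat6b promoter stood at 2669 to 3280 CPM in transgenic and 232 to 244 CPM in wild-type FVB x BALB/c libraries. It stood at 293 to 300 CPM in KO and 256 to 302 CPM in wild-type C57BL/6 libraries, which checks nothing in the KO, since the place of the deletion relative to this window is not given in the sources used here. Promoter counts were 9.88 to 10.4 times the gene-end counts in transgenic libraries, 6.98 to 8.59 times in wild-type FVB x BALB/c, 8.10 to 9.42 times in wild-type C57BL/6 and 8.99 to 9.67 times in KO libraries. In the regions named for enhancer marks, chromosome Y gave 0.967, 0.458, 0.787 and 9.01 CPM in transgenic libraries 1 to 4, against 48.6 to 61.3 in wild-type FVB x BALB/c, 38.9 to 48.4 in wild-type C57BL/6 and 34.1 to 42.0 in KO libraries. In promoter windows chromosome Y gave 123 to 130 CPM in transgenic and 325 to 412 in wild-type FVB x BALB/c libraries. KO libraries had 200 to 253 CPM there and wild-type C57BL/6 libraries 276 to 369, and at gene ends 3014 to 3744 against 4583 to 5002. The labels used here give no sex. The part that the read distribution and the chromosome Y signal play was not tested, either between transgenic and wild-type libraries or between KO and wild-type libraries.

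The labelled cell type was checked with the promoters of 8 neural progenitor genes (Sox1, Sox2, Pax6, Nes, Hes1, Hes5, Fabp7 and Emx2), whose summed level was 741 to 807 CPM in wild-type FVB x BALB/c, 1039 to 1100 in transgenic, 902 to 957 in wild-type C57BL/6 and 999 to 1044 in KO libraries. None of these 8 promoters is in the set. The promoters of 11 mesenchymal and meningeal genes summed to 409 to 444 CPM in wild-type FVB x BALB/c and 313 to 341 in transgenic libraries, and 2 of them, Snai2 and Tbx18, are in the set. Summed levels of 8 microglia and leukocyte promoters were 71.6 to 103 against 56.0 to 70.3 CPM, of 6 endothelial promoters 111 to 116 against 89.5 to 97.3, of 5 erythroid promoters 60.8 to 68.7 against 49.0 to 54.6 and of 7 neuronal promoters 209 to 224 against 168 to 186, with no promoter in the set. For each of these 5 lists of other cells the transgenic libraries lay below all 4 wild-type libraries, and for the progenitor list above them. The lists also differ in level. At the level of the rule were 7 progenitor, 7 mesenchymal and meningeal, 2 endothelial and 1 neuronal promoters. None of the leukocyte or erythroid promoters were, so none of these could enter the set. All 4 transgenic values lay below all 4 wild-type values at 30.5% of autosomal promoters, compared with 20% of those at the level. What level contributed to these sums was not tested. What a shift in cell types contributed to the set was not tested, and fewer cells with an open promoter cannot be told apart from less opening in every cell.

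Together the 659 promoters took 3.78% ± 0.106 (SD, n = 4) of all promoter counts in wild-type FVB x BALB/c libraries and 2.19% ± 0.167 (n = 4) in transgenic libraries. Summed levels were 39206, 37774, 36652 and 37473 CPM in wild-type libraries 1 to 4, and 21103, 21117, 20971 and 24409 CPM in transgenic libraries 1 to 4. The groups lie far apart, and transgenic library 4 sits above the 3 other transgenic libraries, which are close together. Library 4 had the highest of the 4 transgenic values at 511 promoters of the set (77.5%), compared with 28.1% of all promoters at the level. The same library had the lowest Kat6b promoter level of the transgenic group, 2669 CPM against 3102 to 3280, and was the lowest at 94 of the 124 promoters (75.8%) that met the mirror rule, with all transgenic values above all wild-type values and a ratio of at least 1/0.67. Its chromosome Y signal in the regions named for enhancer marks was 9.01 CPM, against 0.458 to 0.967 in transgenic libraries 1 to 3. How these differences of library 4 relate to each other was not tested. When library 4 was left out, 783 promoters met the rule, and 656 of the 659 were among them.

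**Figure D1:**
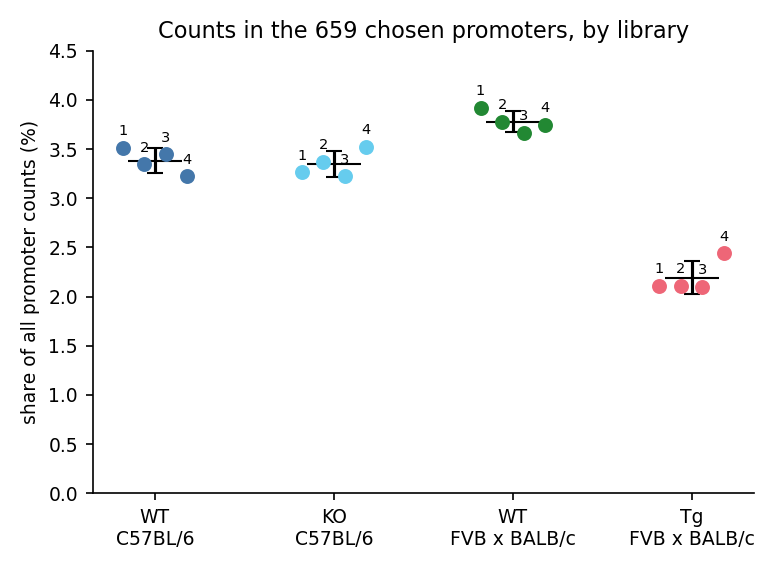
Share of each library's promoter counts that fell in the 659 promoters (vertical axis, percent; points numbered by replicate, bars mean ± SD of 4). The transgenic libraries lie at 2.10% to 2.44%, below every other library, and the C57BL/6 libraries lie between 3.22% and 3.53%.

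The size of the set depended on how libraries were scaled. The median promoter at the level was 0.05 higher on the log2 scale in transgenic than in wild-type cells under the column sum, 0.17 higher with edgeR's TMM scaling and 0.45 higher when each library was scaled by its gene-end total. The median over the set was -0.76, -0.64 and -0.36 under the same scalings, and all 659 promoters stayed below 0 on each. With TMM scaling 396 promoters met the rule, and with gene-end totals 79 did, all of them within the 659. Each of these scalings applies 1 factor to a whole library, and both raised transgenic relative to wild-type values. Values below 0 and smaller sets inside the 659 therefore follow largely from the rule, and they do not test the set. The 79 include 20 zinc finger genes and all of Mrgpra3, Ms4a6b, Pate10, H2-M3, Gm21119 and Isoc2b.

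Ratios of transgenic to wild-type means ran from 0.0970 to 0.67 with a median of 0.589, against a median of 1.03 over all promoters at the level. Few promoters were far down: 100 of the 659 had a ratio of 0.5 or less. The wild-type mean ranged from 30.0 to 230 CPM with a median of 47.6, and the set was concentrated near the lower end of that scale. Between 30 and 50 CPM 348 of 2905 promoters (12%) were in the set, between 50 and 100 CPM 254 of 4974 (5.11%), between 100 and 200 CPM 56 of 2414 (2.32%), and above 200 CPM 1 of 269 (0.372%). Near the limit of the rule, Eif2ak2 (0.6696), Zfp354a (0.6697) and Acsl5 (0.66996) fell just inside, and Papss2 (0.6702), Emc2 (0.6704) and Manea (0.6711) just outside. A further 5 promoters met the level and the ratio but had overlapping values.

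**Figure D2:**
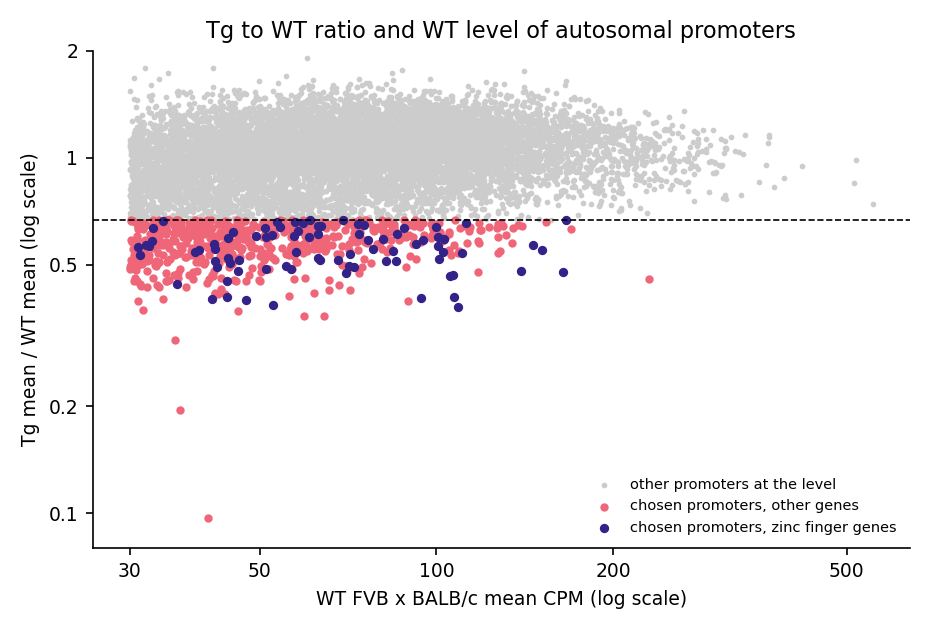
Ratio of the transgenic to the wild-type mean (vertical, log scale) against the wild-type FVB x BALB/c mean CPM (horizontal, log scale) for the 10562 autosomal promoters at the level. Chosen promoters lie under the dashed line at 0.67, those of zinc finger genes are dark, and the lowest point is Mrgpra3 at 0.0970.

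The lowest ratio belonged to Mrgpra3, a receptor of itch-sensing neurons, with 31.9, 39.7, 42.4 and 49.1 CPM in wild-type FVB x BALB/c libraries and 3.73, 3.33, 3.39 and 5.38 in transgenic libraries. Its level was also low on C57BL/6, at 5.58 ± 2.08 CPM in wild-type and 4.53 ± 0.481 in KO cells (SD, n = 4), so the wild-type FVB x BALB/c group alone was high. Ms4a6b, a member of a membrane protein family found on immune cells, shared this pattern, with 39.3, 39.7, 39.6 and 27.4 CPM in wild-type FVB x BALB/c against 6.71, 6.42, 4.79 and 10.5 in transgenic libraries, and means of 9.2 and 12.5 CPM in wild-type and KO C57BL/6 libraries. Pate10, of a family expressed in prostate and testis, had 37.1, 34.6, 41.5 and 30.3 against 8.95, 8.32, 8.77 and 18 CPM, the last of these in transgenic library 4. The uncharacterised genes Gm21119, Gm15319 and 4930467E23Rik, which follow each other on chromosome 8, stood at 64.3, 89.3 and 65.5 CPM in wild-type FVB x BALB/c, at 23.0, 35.2 and 27.8 in transgenic, and at 21.6, 38.7 and 23.2 in wild-type C57BL/6 cells. These genes belong to families of close copies, so the reads may come from a related copy.

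Other promoters among the 20 lowest were high on C57BL/6 too. Isoc2b, an isochorismatase family gene, had 51.3, 45.2, 44.7 and 42.6 CPM in wild-type FVB x BALB/c and 15.7, 15.0, 18.9 and 18.4 in transgenic libraries, next to 58.2 ± 6.22 in wild-type C57BL/6. H2-M3, which presents formylated peptides to T cells, had 53.5, 61.3, 56.2 and 67.2 against 23.6, 19.3, 16.7 and 25.6 CPM. The transgenic values were the lowest of all 16 libraries for both genes. Plscr4 (a phospholipid scramblase, ratio 0.408), Folh1 (a glutamate carboxypeptidase, 0.397), Phactr3 (a regulator of protein phosphatase and actin, 0.414) and Lrfn5 (a synaptic adhesion protein, 0.415) had wild-type C57BL/6 means of 53.6, 33.2, 44.4 and 42.2 CPM, close to their wild-type FVB x BALB/c means of 56.0, 31.0, 42.5 and 41.9. Acod1, which makes itaconate in macrophages, stood between, with 31.6 CPM in wild-type FVB x BALB/c, 11.8 in transgenic and 21.1 in wild-type C57BL/6 cells.

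**Figure D3:**
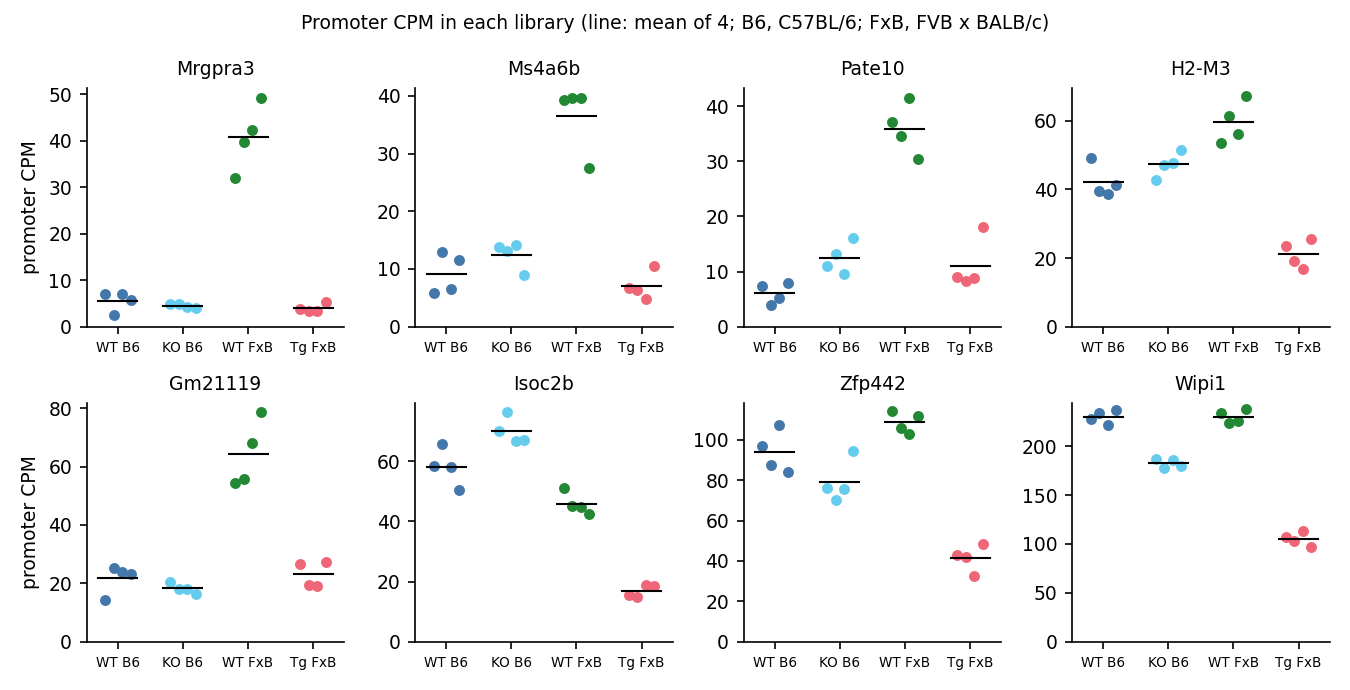
Promoter CPM in each of the 16 libraries for 8 genes (points, libraries; line, mean of 4; vertical axes start at 0). At Mrgpra3, Ms4a6b, Pate10 and Gm21119 only the wild-type FVB x BALB/c group is high, whereas at H2-M3, Isoc2b, Zfp442 and Wipi1 the transgenic group alone lies below the other 3.

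The best covered promoter was that of Wipi1, an autophagy protein that binds phosphoinositides, with 233, 223, 226 and 238 CPM in wild-type FVB x BALB/c and 107, 103, 113 and 96.8 in transgenic libraries. Its ratio of 0.456 is well under the rule's limit, and it is the single promoter above 200 CPM in the set. The next were Dynlt1b, a dynein light chain with close copies (169 CPM in wild type to 107 in transgenic cells, ratio 0.632), Zfp386 (166 to 111, 0.666), Zfp960 (164 to 78.3, 0.477) and Tasp1, a protease that cleaves nuclear regulators (154 to 101, 0.658).

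Zinc finger genes were the largest class. They supplied 83 of the 659 promoters (12.6%), compared with 3.40% of promoters at the level, and 23.1% of the 359 zinc finger promoters at the level were in the set. Proteins of this class bind DNA, and many of the clustered ones in mouse silence transposable elements. Zfp442 had 114, 106, 103 and 112 CPM in wild-type FVB x BALB/c and 42.8, 41.8, 32.7 and 48.2 in transgenic libraries, and its neighbour Zfp937 had 102, 101, 83.9 and 88.8 against 34.8, 37.1, 35.7 and 43.6. Both had C57BL/6 values far above the transgenic ones, with wild-type means of 94.0 and 85.5 CPM. Zfp960 differed from them, since its wild-type C57BL/6 mean of 80.3 ± 10.1 CPM was near the transgenic mean of 78.3 ± 11.5 (SD, n = 4).

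The other zinc finger promoters among the lowest ratios were Zfp984 (0.386), Zfp820 (0.397), Zfp947 (0.400), Zfp982 (0.405) and Zfp970 (0.406). Of the 83, 25 lie on chromosome 13, and chromosomes 7, 17 and 2 hold 19, 18 and 7. The 75 with a RefSeq promoter had a median of 51% G and C and a median observed to expected CpG ratio of 0.476 (quartiles 0.378 and 0.619), whereas the 225 other zinc finger promoters at the level with a sequence had 58.7% and 0.729 (0.575 and 0.852). Their wild-type median levels were near each other, 62.7 and 69.2 CPM. The median log2 difference of all 359 zinc finger promoters at the level was -0.17, and 4 of them met the mirror rule. Reads of near-identical copies can be assigned to the wrong gene of a cluster, so single genes of this class are uncertain.

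Receptors and channels of the cell surface made up another part of the set. A list of G protein-coupled receptors for amines, peptides and lipids, drawn up after the gene names had been seen, held 21 of 59 promoters at the level (35.6%). Ptger3, a prostaglandin E receptor, had 33.5, 32.1, 36.4 and 34.7 CPM in wild-type FVB x BALB/c against 10.7, 14.7, 13 and 16.5 in transgenic libraries, and the serotonin receptor Htr5b had 42.2, 41.0, 47.0 and 37.6 against 11.9, 19.5, 17.5 and 21.1. Going from wild-type to transgenic means, the neuropeptide Y receptors Npy1r (40.3 to 20.5 CPM) and Npy5r (33.1 to 16.6), the tachykinin receptor Tacr3 (39.1 to 18.8) and the intestinal peptide receptor Vipr2 (61.1 to 34.1) were also in the set. Ion channels opened by ligands, a list of the same origin, held 8 of 24 (33.3%), among them the GABA receptor subunit Gabra4 (33.2 to 17.0), the nicotinic receptor Chrna7 (66.5 to 40.0) and the kainate receptor Grik1 (57.2 to 30.2). Gabrb1, next to Gabra4, is also among the 8. Its counts of 115, 113, 65 and 36 in wild-type FVB x BALB/c libraries were near the 107, 108, 61 and 34 of Gabra4. These 2 promoters may count the same reads. Potassium channels held 7 of 39 (17.9%), with ratios of 0.527 to 0.651 that included Kcnc2 (56.1 to 29.9 CPM) and Kcna6 (53.3 to 34.7). In the 3 lists together, 1 promoter met the mirror rule, that of a potassium channel.

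Genes of the extracellular matrix and of cell contact were the next group. Collagens and laminins held 8 of 23 promoters at the level (34.8%), with ratios of 0.526 to 0.667. Col5a2, a fibrillar collagen chain, had 47.1, 42.7, 45.2 and 49.8 CPM in wild-type FVB x BALB/c and 25.6, 25.9, 20.1 and 25.4 in transgenic libraries, and Lama1, a basement membrane laminin chain, had 73.5 ± 1.01 against 47.3 ± 5.05 (SD, n = 4). Col4a3 and Col4a4 are neighbours read in opposite directions, and their nearly equal values (41.7 and 42.4 CPM in wild type, 24.0 and 23.9 in transgenic cells) may come from the same reads. Integrins and the related gene Itgbl1 held 4 of 15, including the collagen receptor Itga1 (95.3 to 57.7 CPM) and the fibronectin receptor Itga5 (46.2 to 30.4). Cadherins held 3 of 11, namely Cdh18, Cdh19 and Cdh20, and the annexin and S100 list 4 of 9, all S100 genes, of which S100a10 stood highest (78.2 to 48.6 CPM). The neighbours S100a1 and S100a13 had nearly equal counts, 125, 84, 92 and 55 against 124, 83, 89 and 54 in wild-type FVB x BALB/c libraries. They may count the same reads, so the share of this list is uncertain. Axon guidance genes held 4 of 25, with Robo1, a receptor for Slit proteins, at 49.9 CPM in wild type and 22.6 in transgenic cells.

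Among developmental regulators, the set held factors of regions and tissues other than the dorsal telencephalon. All 3 chosen promoters of a list for the ventral telencephalon (3 of 9 at the level) had wild-type means of 32.1 to 33.7 CPM, and the highest of their transgenic values was 21.7, while 1 other promoter of the 9 met the mirror rule. Isl1, a factor of cholinergic and motor neurons, had 40.6, 34.6, 26.3 and 33.2 against 13.4, 13.3, 12.4 and 19.4 CPM, Lhx8, a factor of basal forebrain neurons, had 32.1 ± 2.51 against 13.9 ± 2.48, and Gad2, which makes the transmitter GABA, had 33.3 ± 3.21 against 16.5 ± 4.30 (SD, n = 4). The list for mesenchyme held 3 of 22, the repressor Snai2 (73.2, 76.0, 61.8 and 62.1 against 26.8, 30.9, 25.5 and 36.8 CPM), the growth factor Tgfb1 (39.1 to 22.7) and the T-box factor Tbx18 (77.8 to 48.8). Homeobox genes, a list drawn up after the names had been seen, held 11 of 70 (15.7%), including Alx1 (31.2 to 13.8 CPM), Nkx6-1 (45.3 to 23.8) and En1 (39.4 to 23.3), and forkhead genes held 4 of 25, including the endoderm factor Foxa1 (39.1 to 20.7). Tal1, a blood cell factor (32.8 to 15.0), and Atoh1, a hindbrain factor (42.9 to 19.7), were 2 of 4 from a bHLH list of 19 drawn up in the same way. Most wild-type means named here lie between 30 and 50 CPM, where 12% of all promoters were in the set.

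Immune genes appeared in small numbers. Interferon-induced genes held 6 of 23 promoters at the level (26.1%), with ratios of 0.503 to 0.666, and Gbp2, a guanylate-binding protein, had 64.6 ± 5.34 CPM in wild-type FVB x BALB/c against 35.9 ± 4.07 in transgenic cells. Chemokines, interleukins and their receptors held 5 of 18, among them Cxcl12 (47.9 to 22.4 CPM) and Ccl2 (50.8 to 33.6). TRIM genes held 4 of 31 and the tumour necrosis factor family 3 of 17. Genes of motile cilia, listed after the names had been seen, held 12 of 53 (22.6%), including the dynein heavy chain Dnah7b (51.8 to 25.2 CPM).

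Among further classes, synaptotagmins held 3 of 8, phospholipid phosphatases and scramblases 4 of 13, genes with names that start with Gpr or Adgr, not all of them receptors, 7 of 35 (20%), glycosyltransferases 7 of 52 (13.5%) and Gm and Rik genes 5 of 37 (13.5%). Several classes had shares near or below the 6.24% of all promoters at the level. Solute carriers held 11 of 188 (5.85%), RAB GTPases 3 of 53, transmembrane TMEM genes 5 of 139 (3.60%), coiled-coil domain genes 4 of 80, F-box, Kelch and BTB genes 4 of 106 and mitochondrial ribosomal and complex I genes 3 of 105. Among 61 lists, 14 held no promoter of the set, some of them with few promoters at the level. Of those with more than 10 promoters at the level, cytosolic ribosomal proteins held 0 of 80, cyclins and Cdk kinases 0 of 35, histone genes 0 of 34, neural progenitor genes 0 of 20, p53 targets and cell cycle inhibitors 0 of 20, immediate early genes 0 of 17, YAP targets 0 of 16, aldehyde dehydrogenases 0 of 12 and SOX genes 0 of 11. In the shorter of these lists a count of 0 lies close to what a share of 6.24% would give. Of the 659 promoters, 431 belonged to no list. Class shares were not adjusted for level, and 12% of promoters at 30 to 50 CPM were in the set but 2.32% at 100 to 200 CPM. What level contributed to the differences between classes was not tested.

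**Figure D4:**
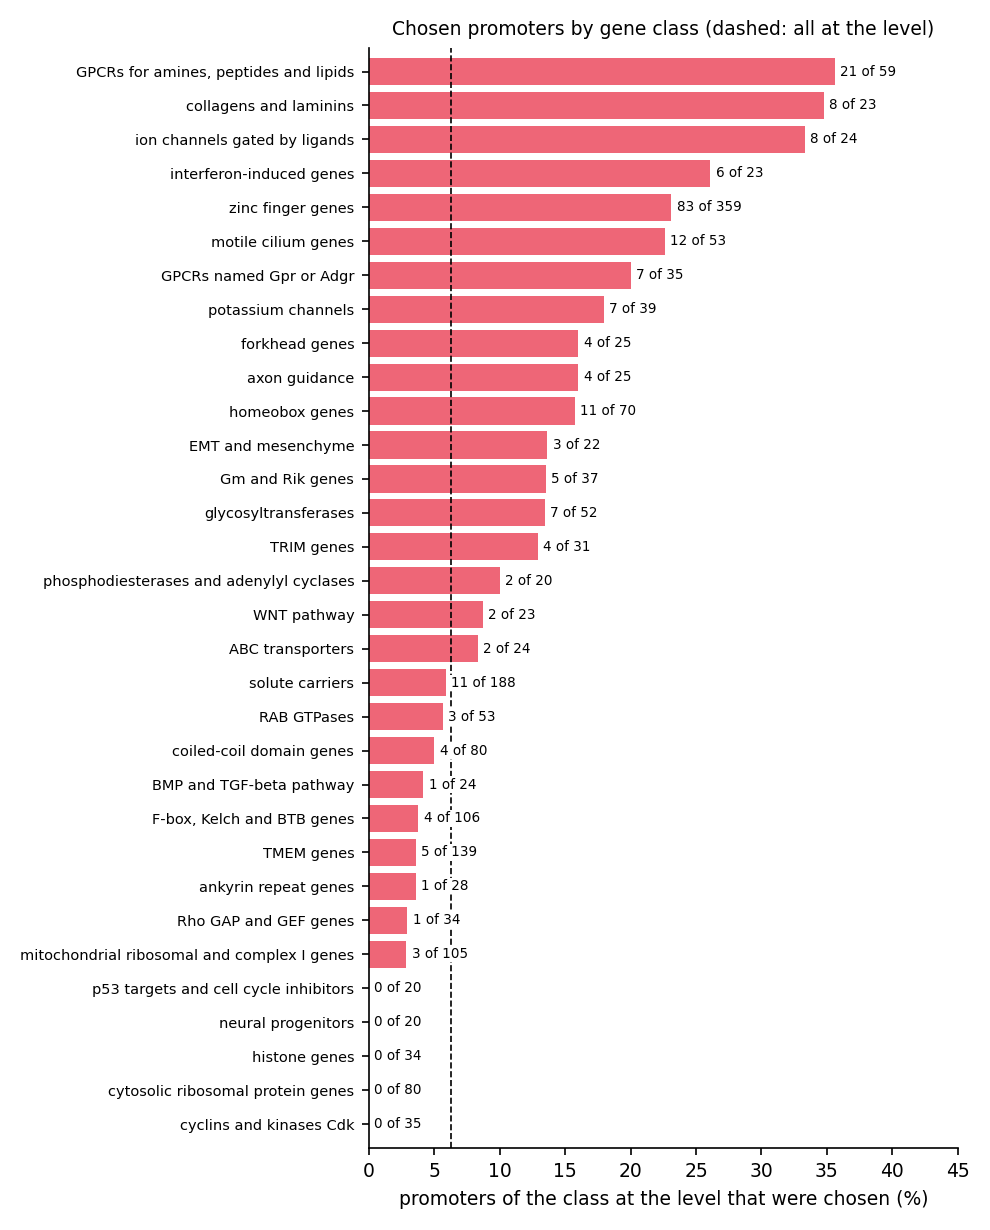
Share of each gene class's promoters at the level that are in the set (percent), for classes with at least 20 such promoters, with counts beside the bars and the share of all promoters at the level (6.24%) as a dashed line. Receptors for amines, peptides and lipids, collagens and laminins, and ligand-gated channels stand at 33.3% to 35.6%, and 5 classes are at 0. Shares are not adjusted for wild-type level. The lists for these receptors, ligand-gated channels, motile cilia and homeobox genes were drawn up after the gene names had been seen.

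Many promoters of the set were neighbours in the genome. Chromosome 13 held the highest share of its promoters at the level (62 of 462, 13.4%) and chromosome 11 the lowest (15 of 822, 1.82%). In gene order along the chromosomes, 242 of the 659 stood next to another promoter of the set, and 110 lay in 29 runs of 3 or more. The longest run was of 7 zinc finger genes on chromosome 13, from Zfp953 to Zfp58, with ratios from 0.521 for Zfp456 to 0.645 for Zfp874b. Runs were not limited to zinc finger genes: Palmd, Plppr4, Plppr5, Snx7 and Dpyd form a run of 5 on chromosome 3. Within it, Palmd had 34.6 CPM in wild type and 16.4 in transgenic cells, Plppr4, a phospholipid phosphatase-related protein of neurons, 61.8 and 25.8, and Dpyd, which breaks down pyrimidines, 94.9 and 62.3. These runs were picked after their values had been seen.

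Of the neighbours at the level of promoters in the set, 294 of 833 (35.3%) were in the set themselves, compared with 539 of 13529 (3.98%) for the neighbours of other promoters at the level. Leaving out zinc finger genes gave 206 of 709 (29.1%) and 503 of 13097 (3.84%). Windows that overlap share reads, so neighbours whose RefSeq starts lie more than 2 kb apart were also counted: 190 of 541 (35.1%) were in the set next to a promoter of the set, and 351 of 8247 (4.26%) next to another. All 14 neighbours within 2 kb of a promoter in the set were in the set as well.

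On C57BL/6 most of these promoters lay above the transgenic level. The set took 3.38% ± 0.127 of promoter counts in wild-type and 3.35% ± 0.134 in KO C57BL/6 libraries (SD, n = 4). At 497 promoters (75.4%) all 8 C57BL/6 values lay above all 4 transgenic values, as at 13.5% of all promoters at the level. At 156 (23.7%, compared with 3.77%) all 4 wild-type FVB x BALB/c values lay above the 12 other libraries. The wild-type C57BL/6 mean was at most 0.67 of the wild-type FVB x BALB/c mean at 54 promoters (8.19%, compared with 1.30%) and at most the transgenic mean at 22. The median ratio of the FVB x BALB/c to the C57BL/6 wild type was 1.14 in the set and 0.997 over all promoters at the level. The rule asks for high values in the wild-type FVB x BALB/c libraries and for low values in the transgenic libraries. Comparisons of the C57BL/6 libraries with either group are thus set in part by the rule, as are the gaps to all promoters at the level. They are given without a test.

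In the knockout the median of the set was near 0, and the promoters that passed the test went both ways. Among 20008 promoters tested with edgeR's quasi-likelihood test, 3.99% were called at an adjusted p under 0.05, and 53 of the 659 (8.04%) were, 26 higher and 27 lower in KO. The share called higher was 3.95% in the set, 2.09% of all tested and 3.51% of those at the level, and the share called lower was 4.10% in the set, 1.9% of all tested and 1.33% at the level. The median log2 difference between KO and wild type was 0.01 in the set, -0.01 over all promoters tested and 0.04 at the level. All promoters tested include those on chromosome X, which the set leaves out. A fit of autosomes only called 3.25% of all promoters tested, and 54 of the set. All 4 KO values lay below all 4 wild-type values at 42 (6.37%, with 5.46% of autosomal promoters and 4.54% of those at the level) and above them at 32 (4.86%, with 3.98% of autosomal promoters and 6.40% of those at the level). The calls in the lower direction depended on scaling and single libraries: 5 were made with the TMM factors of gene ends, 10 with DESeq2, and 13 to 17 when wild-type library 1, 2 or 3 or KO library 1 or 3 was left out. The number higher was 26 with gene-end factors, 15 with DESeq2 and 17 without wild-type library 4.

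The 10 promoters higher in KO with the lowest p were Fcgr3, Dnajc5b, Ston2, Spo11, Selenop, Caps2, Lrrc3b, Scn7a, Pate10 and Gulp1, with log2 differences of 0.32 to 1.04. At each of them the direction in KO was opposite to that in the transgenic cells, and that opposition itself was not tested. Ston2, an endocytic adaptor, had 18.2, 14.6, 21.4 and 17.8 CPM in wild-type C57BL/6 and 30.5, 32.3, 33.3 and 28.2 in KO libraries, a log2 difference of 0.81 (SE 0.13, edgeR adjusted p = 1.95e-06). Fcgr3, a receptor for immunoglobulin G, had 103, 99.5, 104 and 85.9 against 133, 133, 128 and 132 CPM, a log2 difference of 0.46 (SE 0.07, edgeR adjusted p = 1.43e-07). Its transgenic mean was 66.3 CPM against 101 in wild-type FVB x BALB/c, so the level lay on opposite sides of the wild types in the 2 genotypes. Pate10 had the largest difference, 1.04 (SE 0.23, edgeR adjusted p = 0.00132), on 9 to 22 counts in wild-type and 25 to 56 in KO libraries. Spo11, which cuts DNA in meiosis, stood at 35.4 CPM in wild-type and 50.3 in KO libraries, and Selenop, which carries selenium, at 35.4 and 50.6.

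The 10 promoters lower in KO with the lowest p were Baiap2l1, Kcna6, Ano4, Wipi1, Bbox1, Ndst3, Mgst1, Cntn1, Vat1l and Apobec1, with log2 differences of -0.31 to -0.73. These were lower than their own wild type in both genotypes. Baiap2l1, which links membranes to actin, had 80.9, 76.8, 81.0 and 77.2 CPM in wild-type C57BL/6 and 59.3, 45.8, 48.6 and 53.3 in KO libraries (log2 difference -0.57, SE 0.08, edgeR adjusted p = 5.71e-08). Bbox1, an enzyme of carnitine synthesis, had 27.1, 23.2, 26.1 and 22.8 against 13.2, 15.8, 16.1 and 14.1 CPM (-0.73, SE 0.15, edgeR adjusted p = 0.000216). For both genes every KO value lay below every wild-type value. Wipi1 had 227, 234, 222 and 237 against 186, 178, 186 and 180 CPM (-0.31, SE 0.06, edgeR adjusted p = 1.72e-05), but its adjusted p was 0.248 with gene-end factors and 1.14e-08 to 0.000443 under its other alternatives.

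Calls in KO within the classes named above are set beside the 8.04% called over the set and the 3.99% called over all promoters tested. Zinc finger genes had 1 call among 83, Zfp982 (-0.37), and their median log2 difference was -0.01. Collagens and laminins had 1 of 8, Col9a2 (0.47), integrins 1 of 4, Itga1 (-0.27), potassium channels 1 of 7, Kcna6 (-0.71), and interferon-induced genes 1 of 6, Gbp2 (-0.36). The receptors for amines, peptides and lipids had 2 of 21, Ptger3 (-0.45) and Grm3 (0.31), the homeobox list 2 of 11, with En1 (0.45) among them, and the ventral telencephalon list 0 of 3, by edgeR with 151 of the 659 promoters at an unadjusted p under 0.05. Tbx18 was called higher in KO (0.28).

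**Figure D5:**
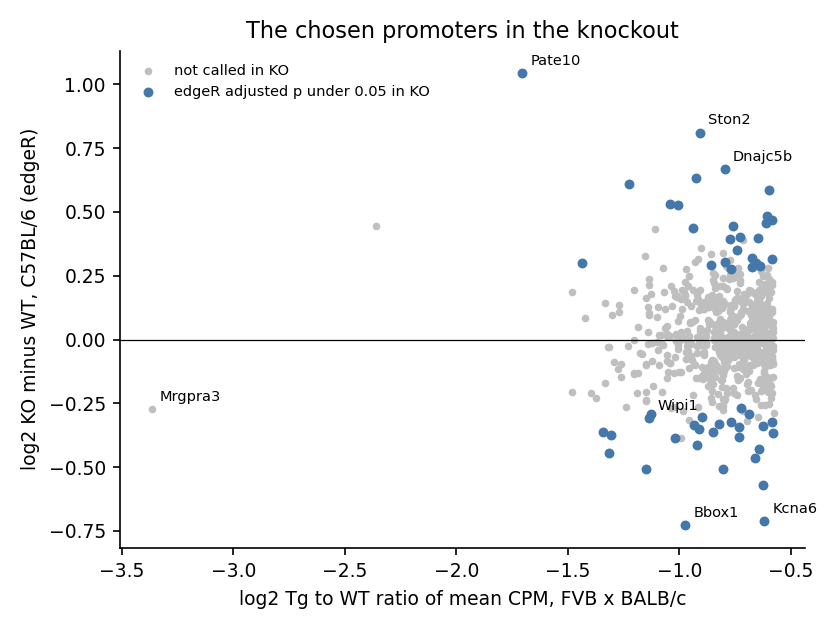
Log2 difference between KO and wild-type C57BL/6 (vertical, edgeR) against the log2 ratio of transgenic to wild-type means on FVB x BALB/c (horizontal) for the 659 promoters. The 53 called promoters (dark) lie on both sides of 0, 26 above and 27 below, and Pate10 is the highest.

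Gene ends, windows behind the transcription end, give another view of the same genes. In the transgenic libraries 517 genes of the set had a mean of at least 20 CPM there, with a median log2 difference of -0.45 from wild type, compared with -0.16 for the 9544 genes with promoters at the level. All 4 transgenic values lay below all 4 wild-type values at 85 gene ends (16.4%, compared with 6.01%). These come from the libraries that chose the set and were not tested. In KO 464 gene ends were tested, and 3 were called, 0.647% beside 1.52% of all gene ends tested, with 31 at an unadjusted p under 0.05. Of the 3 called, 2 were lower (beside 0.849% of all called lower) and 1 higher (beside 0.672%). The set is autosomal, whereas all gene ends tested include those on chromosome X. A fit of autosomes only called 0.810% of all gene ends tested, and 2 of 465 in the set. The share called is therefore not read as a shortfall in the set. Pcdh20, a protocadherin, had 145, 97.0, 129 and 118 gene-end CPM in wild-type C57BL/6 and 40.7, 53.4, 46.3 and 50.1 in KO libraries, a log2 difference of -1.34 (SE 0.22, edgeR adjusted p = 1.39e-06). Clstn2, a synaptic calsyntenin, was lower (-1.20, edgeR adjusted p = 0.0168) and Nfkbiz, a nuclear regulator of NF-kappa-B, was higher (0.87, edgeR adjusted p = 0.0360). The call of Nfkbiz was lost in 12 alternative settings, with edgeR adjusted p = 0.0656 to 0.184 in the 6 of these that left out 1 library, and kept in 6, while that of Clstn2 was lost in 6 and kept in 11. The promoters of these 3 genes did not pass the test in KO. Without wild-type library 1 or 4 or KO library 1, 1 gene end was called, and without wild-type library 2, 5 were.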

How the data were processed

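The authors deposited whole-number counts of ATAC-seq reads per promoter and per gene end for 16 libraries, made with featureCounts on mm39, per the submitters' processing notes. An aligner or a strand setting was not given in the sources used here. Of 20113 promoter windows 18756 are 2001 bp long. Gene IDs were matched to symbols, chromosomes and gene order in RefSeq (GRCm38.p6), for 20091 of 20113. The members and gene lists were chosen with earlier results of these data known.

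CPM were computed by column sum. KO and wild-type C57BL/6 were compared with edgeR 4.0.16 (R 4.3.3; quasi-likelihood, robust, TMM, filterByExpr, 1 fit over 16 libraries, Benjamini-Hochberg over all regions tested, threshold 0.05), which was tested on simulated data.  Replicates are separate embryos, and all pairs differed beyond sampling noise. Genes named are the 20 lowest ratios, the 5 highest levels, up to 4 of the highest level in each class with 3 or more members, the 10 KO calls of lowest p in each direction, and those said to be picked later. The remaining class examples and class lists marked so were picked after values or names were seen. Alternatives were other scalings, DESeq2 1.42.0, limma-voom (limma 3.58.1), other filters, thinning, a replicate block and leaving out each library.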

Additional observations from a re-analysis of the deposited data

Results flagged for a closer look

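In groups of 4 libraries, a library standing far from the other 3 was looked for in 188 groups of values, over 46 genes and the summed levels, and 13 were found, where chance gives about 1 in 20 groups. The summed level of the 659 promoters was 24409 CPM in transgenic library 4, apart from the other transgenic libraries. Pate10 stood at 18 CPM in the same library. In wild-type FVB x BALB/c, library 4 was low at Ms4a6b (27.4 CPM) and high at Zfp984 (61.4), library 3 was low at Zfp947 (38.2) and Gulp1 (72.3), and library 1 was low at Ston2 (30.3) and high at Nfkbiz (88.7). In KO, library 4 was low at Zfp984 (27.1) and high at Plscr4 (58.5), library 2 was low at Zfp960 (79.4) and library 3 was low at Fcgr3 (128). Wild-type C57BL/6 library 4 was low at Gulp1 (82.3).

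Opposite directions were looked for only among the promoters named for the lowest p in KO, 10 in each direction. At all 10 of those higher in KO, every KO value lay above every wild-type value, while all transgenic values lay below theirs. These 10 were picked for being higher in KO, and the other genes of the set were not searched in this way. The log2 differences in KO were 0.46 for Fcgr3, 0.67 for Dnajc5b, 0.81 for Ston2, 0.53 for Spo11, 0.53 for Selenop, 0.35 for Caps2, 0.63 for Lrrc3b, 0.61 for Scn7a, 1.04 for Pate10 and 0.32 for Gulp1. The difference between the genotypes was not tested.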

How the results depend on the processing

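Of the promoters chosen by the rule, 659 in the reported form, 396 met it with TMM-scaled CPM, 79 with CPM by gene-end total, 311 at a level of 50 CPM, 1146 at a ratio of 0.75 and 100 at a ratio of 0.5, while offsets that follow abundance gave 499, thinning to equal depth 648, a level of 20 CPM 980 and allowing overlap 664. Leaving out each FVB x BALB/c library gave 627 to 783. Against 53 promoters of the set called in KO, DESeq2 called 25 (15 higher, 10 lower), the TMM factors of gene ends 31 (5 lower), and thinning to the smallest library 17 (9 higher, 8 lower), where fewer reads were left. Leaving out each C57BL/6 library gave 37 to 47 calls, 17 to 30 higher and 13 to 29 lower. Gene-end calls were 1 with DESeq2 and 1 to 5 with each library left out. The cause of the other changes was not tested. The sample numbers did not pair the libraries (same-number correlations of -0.11 to -0.02 at promoters), and with the number as a replicate block 51 promoters were called, 26 higher and 25 lower, and 3 gene ends. No direction reversed among the 23 named calls. Of these, 9 lost the call under thinning, 5 with gene-end factors, and at most 3 under each other setting. An offset for GC content was not run, since 79.7% of promoters had a sequence, under the 80% needed. The median promoter of the set held 67 to 165 counts per library, which limits the size of difference that could be seen, and intervals were not computed.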
